A study of Mus musculus with 15 samples.

Results

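DNA damage repair genes are described here across a time course of bleomycin lung injury in the mouse. They comprised 38 genes that were picked by name for their roles in repair, with earlier results of these data known. Their Ensembl identifiers were paired with symbols through GENCODE M21. All 38 were among the 33340 genes of the count table, and all 38 were among the 17457 genes that passed the filter on low counts. By role they fell into 17 genes of homologous recombination and the Fanconi pathway, 5 of checkpoint and break signalling, 7 of end joining, 8 of single-strand break and base excision repair, and 1 mismatch repair gene (Msh6).

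RNA-seq was performed on polyadenylated RNA from whole lungs of C57BL/6 mice, young adult males by the methods for this model. Day 0 held 4 libraries of control lungs, and days 7, 14 and 21 held 4, 4 and 3 libraries of lungs taken after 5 U/kg bleomycin was given into the trachea. The treatment label of day 0 replicates 1 to 3 was none, whereas that of day 0 replicate 4 named bleomycin although its title named a control. The series text gives 3 replicates for a time point, and the titles were followed for the numbers used here. For day 0 replicate 4 the title was followed too, and results were also computed without that library. No saline-treated group at the later days was analysed here, so the effect of bleomycin and that of the procedure cannot be told apart. The labels do not say whether each library was a separate animal, so p-values measure the spread between these libraries.

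Bleomycin breaks DNA directly, on a single strand or on both. Breaks of both strands are mended by homologous recombination, which copies an intact sister chromatid and so works mainly in cells that replicate their DNA, or by end joining, which ligates the ends in any phase of the cell cycle. Fanconi proteins act on cross-linked DNA and stalled replication forks together with recombination, while base excision and single-strand break repair replace damaged bases and seal nicks. In RNA from a whole tissue, a change in the number of cells of a type and a change in the RNA of each cell cannot be told apart.

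Total counts lay between 15652008 and 18020661 per library. All 6 lung epithelial markers examined were present, with a summed level of 52758 to 68215 CPM at day 0. CPM are counts scaled to a common library size after adjusting each library by its TMM factor, a scaling that leaves out the genes with the most extreme ratios between libraries. The libraries also differed in the share of counts from 16 mitochondrial genes, in a way the day does not give. That share was 2.28% and 2.31% in day 0 replicates 1 and 2 against 4.22% and 4.04% in replicates 3 and 4, was 2.03% to 2.15% at day 7 and 2.1% in day 14 replicate 1, and was 2.66% to 4.14% in the other day 14 and day 21 libraries. The labels name no batch. Fits among libraries of similar share are given below where they end the call of a repair gene against day 0 or move its fold change by over 1.5 times.

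To ask which repair routes changed after injury, each later day was compared with day 0. A gene was counted as higher or lower when its Benjamini-Hochberg adjusted p in edgeR was under 0.05 and its fold change over 1.5. At day 7, 11 of the 38 repair genes were higher and 0 were lower, where 16.1% of all genes tested had changed (8.78% higher and 7.36% lower). At day 14, 14 were higher and 0 lower (23.1% of all genes changed, 12.0% higher and 11.2% lower), and at day 21, 10 were higher and 0 lower (22.5% changed, 12.4% higher and 10.1% lower). The share of repair genes that rose was 28.9%, 36.8% and 26.3% at the 3 days. At an unadjusted p under 0.05, 21, 17 and 16 repair genes passed in either direction, where 38.2%, 43.3% and 40.5% of all genes did. All libraries of the later day lay above all of day 0 in 20, 17 and 11 repair genes, and below in 1, 1 and 0, where 17.6%, 16.8% and 19.4% of all genes lay above and 13.2%, 14.4% and 16.0% below.

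Most of the rises, by count, were in recombination and the Fanconi pathway, where 8, 9 and 8 of 17 genes were higher at days 7, 14 and 21. Of the 7 end joining genes 1 was higher at each day, in every case Polq, and of the 8 single-strand break and base excision genes 1, 2 and 1 were higher. Checkpoint and break signalling had 1, 2 and 0 of 5 genes higher. Msh6 passed both thresholds at no day. The median log2 fold change of the recombination and Fanconi genes was 0.74, 0.99 and 0.72, that of the end joining and single-strand break and base excision genes together (15 genes) 0.37, 0.13 and -0.07, and that of all genes tested 0.01, 0.02 and 0.02. The recombination median thus exceeded the other by 0.37 at day 7, 0.86 at day 14 and 0.79 at day 21. Another measure is the mean log2 CPM over the genes of a class relative to day 0. By it the recombination libraries stood at 0.74 to 0.88, 0.83 to 1.06 and 0.32 to 0.94. Those of the other class stood at 0.27 to 0.41, 0.25 to 0.33 and 0.0 to 0.16. The difference of these means had a pooled SD between libraries of 0.10, 0.09 and 0.20, which is not a scale for the medians. Among the libraries of similar mitochondrial share, 3 of day 14 and 2 of day 0, the day 14 difference was 0.42. There the middle recombination gene was Palb2 (0.69), in place of Blm (0.99) over all libraries. The middle gene of the other class was Parp1 (0.27), in place of Xrcc5 (0.13). Recombination genes above the middle one ran from 1.22 (Fancd2) to 2.56 (Fanci), against 1.14 (Bard1) to 2.28 (Exo1) over all libraries. The members had been picked with earlier results of these data known, so no test was made over a class, and the comparisons share the day 0 libraries.

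**Figure D1:**
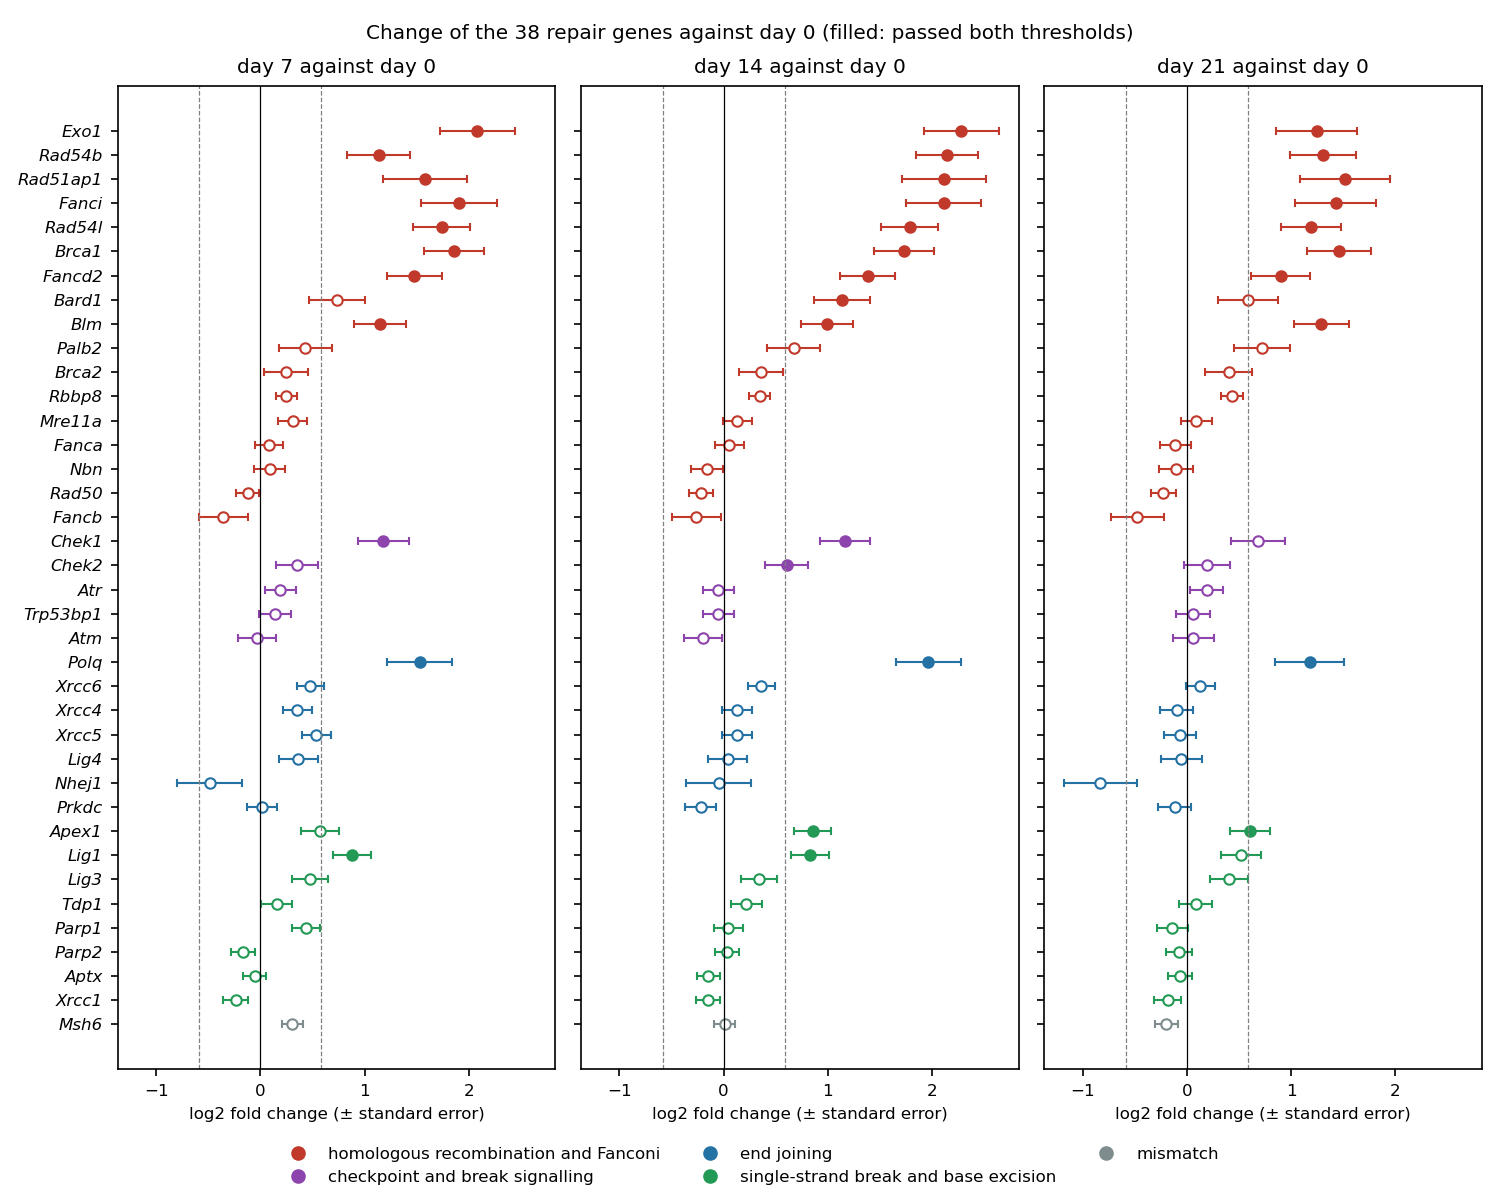
Log2 fold change of the 38 repair genes (vertical axis, grouped by role and ordered by the day 14 value) at days 7, 14 and 21 against day 0, with bars for the standard error. Filled points passed both thresholds and dashed lines mark a fold change of 1.5. All filled points lie to the right of 0, and 8, 9 and 8 of them are recombination and Fanconi genes.

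Rad51ap1 (chr6:126923050-126939587, minus strand, coordinates on mm10 here and below) aids the pairing of strands. It was measured at 0.971, 0.726, 2.92 and 1.12 CPM at day 0, 3.62, 4.46, 4.94 and 4.10 at day 7, 4.25, 9.82, 6.58 and 4.23 at day 14 and 4.76, 2.51 and 5.06 at day 21. Day 0 replicate 3 was higher than the other day 0 libraries and overlapped with day 21 replicate 2, while days 7 and 14 lay above all of day 0. Against day 0 the log2 fold changes were 1.58 (SE 0.40) at day 7, 2.12 (SE 0.41) at day 14 and 1.52 (SE 0.43) at day 21, with edgeR adjusted p of 0.0113, 0.00108 and 0.0144. The day 7 value was 2.31 (edgeR adjusted p = 0.00203) among libraries of similar mitochondrial share and 2.21 (edgeR adjusted p = 0.00849) with that share as a covariate, and the day 14 value among libraries of similar share was 1.77 (edgeR adjusted p = 0.0435).

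Rad54l (chr4:116094264-116123690, minus strand) is a motor protein that moves along DNA during strand exchange. Its levels were 1.17, 1.09, 1.33 and 1.06 CPM at day 0, 3.74, 4.63, 3.95 and 3.27 at day 7, 3.84, 4.21, 4.41 and 3.62 at day 14 and 1.98, 1.77 and 4.24 at day 21. All later libraries lay above all of day 0, and within day 21 the value of replicate 3 was far above those of replicates 1 and 2. It rose by 1.74 (SE 0.27) at day 7, 1.79 (SE 0.27) at day 14 and 1.19 (SE 0.29) at day 21 on the log2 scale, with edgeR adjusted p of 0.000494, 0.000184 and 0.00617. Its exons share 1184 bases with Lrrc41 on the opposite strand.

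Rad54b (chr4:11558922-11615805, plus strand), a relative of Rad54l, was low before injury, with 0.453, 0.907, 0.698 and 0.725 CPM at day 0. It reached 1.93, 1.34, 1.54 and 1.37 CPM at day 7, 2.36, 4.21, 3.15 and 2.72 at day 14 and 1.67, 1.31 and 2.24 at day 21. The day 14 libraries were the highest of the series and lay above all of day 7 as well as day 0. The log2 fold changes against day 0 were 1.14 (SE 0.30) at day 7, 2.14 (SE 0.30) at day 14 and 1.31 (SE 0.32) at day 21, with edgeR adjusted p of 0.0134, 8.20e-05 and 0.00610. Rad54b was the only repair gene that passed both thresholds between day 7 and day 14, where 6.00% of all genes did (2.77% higher and 3.23% lower), with a log2 fold change of 1.01 (SE 0.28, edgeR adjusted p = 0.0393). That call was lost in 11 of 18 alternative fits, among them the fit with the log2 mitochondrial share as a covariate. Over the 18 fits its log2 fold change ranged from 0.83 to 1.13 and its adjusted p from 0.0104 to 0.42. Rad54b shares 2068 exon bases with Fsbp on the same strand, so reads of these 2 genes may have been split or discarded in counting.

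Brca1 and Bard1 encode the paired ubiquitin ligase that brings breaks to the recombination route. Brca1 (chr11:101488764-101551955, minus strand) was at 2.59, 2.60, 1.40 and 2.23 CPM at day 0, 9.29, 7.76, 7.80 and 7.13 at day 7, 8.21, 6.51, 8.98 and 5.73 at day 14 and 4.27, 4.16 and 9.82 at day 21. No later library overlapped with day 0, although day 21 replicate 3 was well above day 21 replicates 1 and 2. Its log2 fold changes were 1.85 (SE 0.29) at day 7, 1.74 (SE 0.29) at day 14 and 1.46 (SE 0.30) at day 21, with edgeR adjusted p of 0.000478, 0.000362 and 0.00222, and the call was kept in all alternative fits at each of the 3 days.

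Bard1 (chr1:71027498-71103146, minus strand) was at 1.88, 2.78, 2.22 and 1.56 CPM at day 0, 3.62, 2.85, 3.62 and 3.98 at day 7, 3.90, 4.85, 5.49 and 4.35 at day 14 and 3.46, 1.82 and 4.24 at day 21. The libraries of days 7 and 14 lay above all of day 0, and day 21 replicate 2 fell among the day 0 values. On the log2 scale the fold changes were 0.74 (SE 0.27) at day 7, 1.14 (SE 0.27) at day 14 and 0.59 (SE 0.29) at day 21, and with edgeR adjusted p of 0.0537, 0.00417 and 0.136 it passed at day 14 alone. Bard1 was among those called at day 7 by DESeq2, and by edgeR when only days 0 and 7 were fitted or day 0 replicate 2 was left out.

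Brca2, which readies the resected end for strand exchange, and Palb2, which joins Brca1 to Brca2, did not pass in edgeR. Brca2 ranged over 4.54 to 5.90 CPM at day 0 and 4.22 to 7.53, 5.17 to 8.27 and 5.53 to 8.41 at days 7, 14 and 21, with overlap at day 7, day 14 and day 21. Its log2 fold changes were 0.25 (SE 0.21) at day 7, 0.36 (SE 0.21) at day 14 and 0.40 (SE 0.23) at day 21 (edgeR adjusted p of 0.416, 0.203 and 0.199). Palb2 ranged over 2.18 to 2.91 CPM at day 0 and 2.18 to 4.34, 3.14 to 5.38 and 3.71 to 4.73 at the later days. All Palb2 libraries of days 14 and 21 lay above day 0, but its log2 fold changes of 0.67 and 0.72 had edgeR adjusted p of 0.0522 and 0.0547, just outside the threshold. Palb2 was called higher by DESeq2 at days 14 and 21, and by edgeR at day 14 when day 14 replicate 4 was left out.

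Fancd2 and Fanci form the clamp that is switched on by ubiquitin at the centre of the Fanconi pathway, and both rose at all 3 days. Fancd2 (chr6:113531682-113597017, plus strand) was at 0.971, 1.81, 1.90 and 1.73 CPM at day 0, 4.36, 3.46, 4.45 and 5.71 at day 7, 3.96, 4.34, 4.52 and 3.98 at day 14 and 3.03, 1.99 and 4.0 at day 21. Every later library was above every day 0 library, with the lowest at day 21 replicate 2. The log2 fold changes were 1.48 (SE 0.26) at day 7, 1.38 (SE 0.26) at day 14 and 0.90 (SE 0.28) at day 21, with edgeR adjusted p of 0.00127, 0.00106 and 0.0252. The day 21 call was lost in 6 of 17 alternative fits.

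Fanci (chr7:79391929-79450264, plus strand) was at 0.583, 0.967, 0.571 and 0.335 CPM at day 0, 1.25, 3.68, 2.14 and 2.20 at day 7, 2.60, 2.87, 2.92 and 2.29 at day 14 and 1.86, 1.25 and 1.88 at day 21. Day 7 replicate 2 was the highest library, and day 0 stayed under all later values. Its log2 fold changes were 1.91 (SE 0.36) at day 7, 2.11 (SE 0.36) at day 14 and 1.43 (SE 0.39) at day 21, with edgeR adjusted p of 0.00198, 0.000476 and 0.0118. Fanci rests on few reads, with 6 to 66 counts per library, and shares 921 exon bases with Polg on the opposite strand. The day 0 CPM of Rad54b and Exo1 lay within the range of Fanci, and those of Polq only partly above it. These genes thus also rest on few reads at day 0.

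Fanca and Fancb, subunits of the upstream core complex that attaches this ubiquitin, did not follow. Fanca was at 9.19 to 12.6 CPM at day 0 and 10.9 to 12.5, 10.0 to 11.9 and 8.66 to 11.6 at days 7, 14 and 21, and its log2 fold changes lay between -0.11 and 0.08. Fancb had the lowest fold changes of its class, with log2 values of -0.36, -0.26 and -0.47 and edgeR adjusted p of 0.284, 0.422 and 0.182. The difference between the clamp and core complex genes was not itself tested.

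Exo1 and Blm cut and unwind DNA during recombination. Exo1 (chr1:175880581-175913489, plus strand), the nuclease that lengthens the resected end, had the largest log2 fold change of the 38 genes at days 7 and 14. Its levels were 0.518, 0.847, 0.635 and 0.725 CPM at day 0, 2.49, 3.35, 2.91 and 2.91 at day 7, 2.95, 3.83, 3.83 and 2.78 at day 14 and 1.79, 0.570 and 2.53 at day 21. Day 21 replicate 2 fell within the day 0 range and all other later libraries lay above it. Against day 0 the log2 fold changes were 2.08 (SE 0.36) at day 7, 2.28 (SE 0.36) at day 14 and 1.24 (SE 0.39) at day 21, with edgeR adjusted p of 0.00103, 0.000245 and 0.0243, and the day 21 call was lost in 8 of 17 alternative fits.

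Blm (chr7:80454733-80535119, minus strand), the Bloom syndrome helicase that dissolves joined recombination products, was the only called gene with its largest fold change at day 21. It was at 1.94, 2.60, 3.68 and 3.01 CPM at day 0, 7.14, 7.81, 4.83 and 5.17 at day 7, 7.27, 4.08, 5.89 and 5.13 at day 14 and 7.98, 5.70 and 7.00 at day 21. All later libraries exceeded all of day 0, with the closest approach between day 14 replicate 2 and day 0 replicate 3. Its log2 fold changes were 1.15 (SE 0.25) at day 7, 0.99 (SE 0.25) at day 14 and 1.29 (SE 0.26) at day 21, with edgeR adjusted p of 0.00409, 0.00629 and 0.00179. Among libraries of similar mitochondrial share the day 14 value was 0.58 (adjusted p = 0.193), so that call was not kept there.

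Genes of the machinery that first senses and trims a break did not pass both thresholds. Mre11a, Rad50 and Nbn form the complex that tethers the ends. No gene of the 3 passed the adjusted p at any day, with log2 fold changes of 0.31, 0.13 and 0.09 for Mre11a, -0.12, -0.22 and -0.23 for Rad50 and 0.09, -0.16 and -0.10 for Nbn. Rbbp8, which activates the nuclease of that complex, was at 24.8 ± 1.37 CPM at day 0 (SD, n = 4) and 33.6 ± 2.93 at day 21 (SD, n = 3). It passed the adjusted p at days 14 and 21 but not the fold threshold. Its log2 fold changes were 0.35 (SE 0.10, edgeR adjusted p = 0.0144) and 0.43 (SE 0.11, edgeR adjusted p = 0.00658). With the log2 mitochondrial share as a covariate the values were 0.36 and 0.44 (edgeR adjusted p of 0.00843 and 0.00412). Among libraries of similar mitochondrial share the day 14 value was 0.38 (edgeR adjusted p = 0.158). Without the complex of Mre11a, Rad50 and Nbn, the other 14 genes of the class had medians of 1.14, 1.26 and 1.05.

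**Figure D2:**
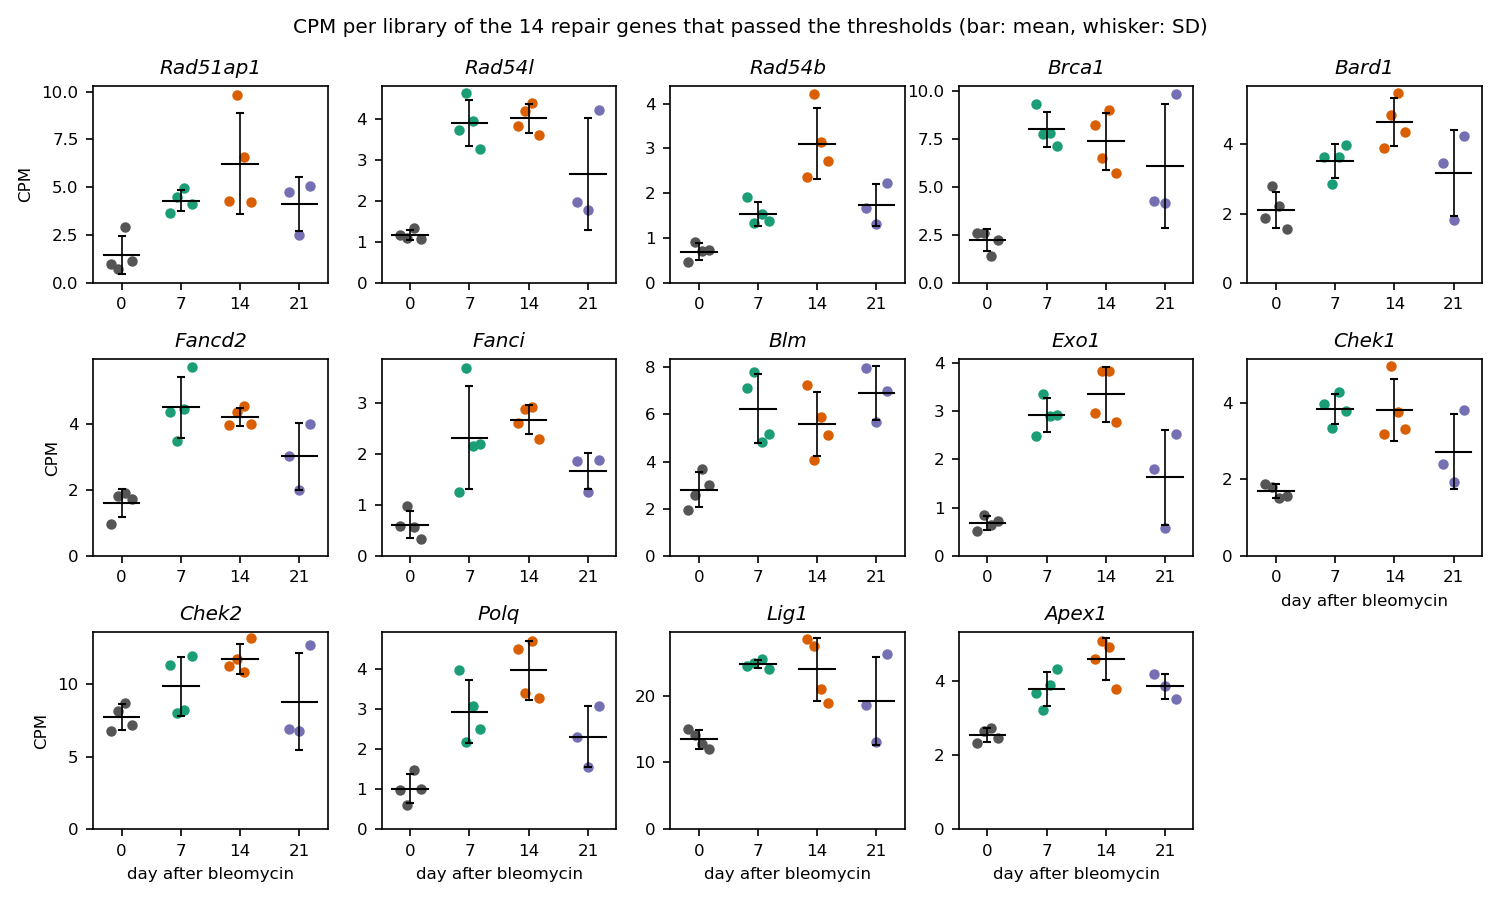
CPM in each library (points) of the 14 repair genes that passed both thresholds against day 0 at 1 or more days, by day after bleomycin (horizontal axis), with the mean (bar) and SD (whisker). Day 0 had 4 libraries, days 7 and 14 had 4 each and day 21 had 3. Exo1 runs from 0.518 CPM at day 0 to 3.83 at day 14, and the day 21 points of Brca1, Rad54l and Lig1 are widely spread.

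Among checkpoint and break signalling genes, Chek1 passed at days 7 and 14 and Chek2 at day 14. Chek1 (chr9:36708482-36727065, minus strand), the kinase that holds the cell cycle when replication stalls, was at 1.88, 1.81, 1.52 and 1.56 CPM at day 0, 3.96, 3.35, 4.28 and 3.81 at day 7, 3.19, 4.97, 3.78 and 3.32 at day 14 and 2.41, 1.94 and 3.82 at day 21. Every later library was above every day 0 library, by the least in day 21 replicate 2. On the log2 scale the fold changes were 1.18 (SE 0.24) at day 7, 1.17 (SE 0.24) at day 14 and 0.68 (SE 0.26) at day 21, and edgeR adjusted p were 0.00313, 0.00191 and 0.0594, so it passed at days 7 and 14.

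Chek2 (chr5:110839979-110874145, plus strand), the kinase activated by Atm after breaks, was at 6.73, 8.16, 8.70 and 7.20 CPM at day 0, 11.3, 7.98, 8.18 and 11.9 at day 7, 11.2, 11.7, 10.8 and 13.2 at day 14 and 6.93, 6.78 and 12.6 at day 21. The day 14 libraries lay above all of day 0, while those of days 7 and 21 overlapped with it. It passed at day 14 alone, with a log2 fold change of 0.61 (SE 0.21, edgeR adjusted p = 0.0331), and lost that call in 11 of 19 alternative fits.

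Atm and Atr, the kinases that start the response to breaks and to bare single strands, were at 21.2 ± 3.85 and 17.4 ± 2.72 CPM at day 0 (SD, n = 4). Their log2 fold changes lay between -0.20 and 0.06 for Atm and between -0.05 and 0.19 for Atr. Trp53bp1, which shields ends from resection and so favours end joining, had log2 fold changes of 0.14, -0.05 and 0.06. The standard errors of these 3 genes at day 14 were 0.18, 0.15 and 0.15, and none passed by the adjusted p at any day.

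In end joining the gene that rose was Polq, the polymerase of the alternative pathway that joins ends at short matching stretches and needs resected ends. Polq (chr16:37011786-37095417, plus strand) was at 0.971, 0.605, 1.46 and 1.0 CPM at day 0, 3.96, 2.18, 3.08 and 2.5 at day 7, 4.49, 3.38, 4.69 and 3.26 at day 14 and 2.29, 1.54 and 3.06 at day 21. All later libraries exceeded all of day 0, by the least in day 21 replicate 2. The log2 fold changes were 1.53 (SE 0.31) at day 7, 1.96 (SE 0.31) at day 14 and 1.18 (SE 0.33) at day 21, with edgeR adjusted p of 0.00299, 0.000250 and 0.0145.

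The 6 genes of the classical pathway (Prkdc, Xrcc5, Xrcc6, Lig4, Xrcc4 and Nhej1) passed both thresholds at no day, with medians of 0.36, 0.08 and -0.08. Xrcc5 and Xrcc6 encode the Ku ring that clamps the broken end. Xrcc5 was at 21.4, 20.9, 16.3 and 15.8 CPM at day 0, 29.1, 28.3, 25.6 and 25.0 at day 7, 24.1, 22.1, 15.6 and 19.7 at day 14 and 16.7, 19.1 and 17.4 at day 21. The day 7 libraries lay above all others, and its log2 fold change at day 7 was 0.54 (SE 0.14, edgeR adjusted p = 0.0132), under the fold threshold. Xrcc5 was the only repair gene that passed both thresholds between day 7 and day 21, where it fell by 0.61 on the log2 scale (SE 0.16, edgeR adjusted p = 0.0210) and 9.54% of all genes changed (5.20% higher and 4.34% lower). With the log2 mitochondrial share as a covariate the day 7 value of Xrcc5 was 0.32 (edgeR adjusted p = 0.143), and the fall to day 21 was not called. That fall lost its call in 5 of 17 alternative fits, among them those without day 7 replicate 1, day 7 replicate 2 or day 21 replicate 1. Its log2 value ranged from -0.69 to -0.34 over the 17 fits.

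Xrcc6 was at 16.3, 15.6, 17.5 and 16.2 CPM at day 0, 24.9, 26.1, 21.1 and 19.2 at day 7, 22.5, 23.8, 19.1 and 18.8 at day 14 and 15.3, 19.0 and 19.5 at day 21. All libraries of days 7 and 14 were above all of day 0. Against day 0 the log2 fold changes were 0.48 at day 7 and 0.36 at day 14, with edgeR adjusted p of 0.0141 and 0.0411, both under the fold threshold. With the log2 mitochondrial share as a covariate the values of Xrcc6 were 0.43 at day 7 and 0.37 at day 14 (edgeR adjusted p of 0.0993 and 0.0355). Among libraries of similar share they were 0.50 and 0.28 (edgeR adjusted p of 0.0485 and 0.325). Prkdc, the kinase that Ku recruits, had log2 fold changes of 0.02, -0.22 and -0.12. Lig4 and Xrcc4, which form the ligase of the pathway, had 0.37 and 0.36 at day 7 and -0.05 and -0.10 at day 21. Nhej1, which aligns the ends, had the lowest day 21 value of the 38 genes, -0.83 (SE 0.35, edgeR adjusted p = 0.0849). It passed both thresholds as lower when day 0 replicate 4 or day 21 replicate 2 was left out.

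In single-strand break and base excision repair, 2 of 8 genes passed. Lig1 (chr7:13277283-13311433, plus strand), the ligase that also seals the fragments of the lagging strand during replication, was at 15, 14.1, 12.7 and 11.9 CPM at day 0, 24.4, 24.9, 25.5 and 24.0 at day 7, 28.4, 27.4, 20.9 and 18.9 at day 14 and 18.6, 13 and 26.2 at day 21. Its day 7 libraries were close together and far above day 0, and day 21 replicate 2 lay inside the day 0 range. On the log2 scale the fold changes were 0.88 (SE 0.18) at day 7, 0.83 (SE 0.18) at day 14 and 0.52 (SE 0.20) at day 21, with edgeR adjusted p of 0.00337, 0.00281 and 0.0568, so it passed at days 7 and 14.

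Apex1 (chr14:50924968-50927139, plus strand), the endonuclease that cuts at a lost base, was at 2.33, 2.66, 2.73 and 2.45 CPM at day 0, 3.68, 3.24, 3.90 and 4.34 at day 7, 4.61, 5.10, 4.92 and 3.80 at day 14 and 4.21, 3.87 and 3.53 at day 21. No later library overlapped with day 0. Its log2 fold changes were 0.57 (SE 0.18) at day 7, 0.86 (SE 0.18) at day 14 and 0.60 (SE 0.19) at day 21, with edgeR adjusted p of 0.0303, 0.00209 and 0.0276, and it passed both thresholds at days 14 and 21. The day 21 call was lost in 13 of 17 alternative fits. Of the 1422 exon bases of Apex1, 877 are shared with Pip4p1 on the opposite strand, and the strand setting of the counting is not given in the sources used here, so its level is uncertain.

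Parp1, the sensor of nicks that marks the site with ADP-ribose chains, was at 58.3, 58.7, 41.0 and 47.1 CPM at day 0, 72.3, 66.9, 72.9 and 65.7 at day 7, 51.0, 48.3, 55.7 and 56.6 at day 14 and 37.4, 43.9 and 58.4 at day 21. The day 7 libraries were the highest, above all of the other days. The log2 fold change was 0.44 at day 7 (SE 0.14, edgeR adjusted p = 0.0303), under the fold threshold, and 0.05 and -0.14 later. With the log2 mitochondrial share as a covariate the day 7 value of Parp1 was 0.26 (edgeR adjusted p = 0.271). Parp2, Xrcc1, Lig3, Aptx and Tdp1, which assist, scaffold, ligate or clean the ends of single-strand breaks, passed at no day, and at day 14 they ran from -0.15 (Xrcc1) to 0.34 (Lig3). Msh6, which recognises mispaired bases, was 0.31 at day 7 (edgeR adjusted p = 0.0380) and -0.20 at day 21 (edgeR adjusted p = 0.201). Its day 7 value was 0.23 (edgeR adjusted p = 0.214) with the mitochondrial covariate and 0.31 (edgeR adjusted p = 0.0556) with the replicate number as a block.

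The later days were also compared with each other. From day 14 to day 21, 0 of the 38 genes and 0.00% of all genes passed in edgeR, while 4 repair genes (Rad54b, Exo1, Nhej1 and Polq, all lower at day 21) and 9.82% of all genes had an unadjusted p under 0.05. DESeq2 called 0 repair genes and 101 genes in all there. The medians of the recombination genes less those of end joining and base excision were 0.19 from day 7 to day 14, 0.19 from day 7 to day 21 and -0.03 from day 14 to day 21.

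The day 21 libraries did not lie together, and the count at that day depended on them. Without day 21 replicate 3 only Rad54b, Brca1, Fanci and Blm were called against day 0 (4 of 38, with 19.6% of all genes called). Without replicate 1 it was 6 (18.8% of all genes) and without replicate 2 it was 13 (21.4%), of which Bard1, Chek1 and Lig1 were added as higher and Nhej1 as lower while Apex1 was lost. Between days 7 and 21, leaving out day 21 replicate 3 raised the count from 1 to 7 (from 9.54% to 10.2% of all genes), with Rad54l, Brca1, Exo1, Chek1, Xrcc5, Parp1 and Lig1 lower at day 21. The class difference from day 7 to day 21 then turned from 0.19 to -0.11, and that from day 14 to day 21 from -0.03 to -0.24. Among libraries of similar mitochondrial share, 9 genes were called at day 7 (without Rad54b and Fanci, with 12.8% of all genes called) and 11 at day 14 (without Blm, Chek2 and Apex1, with 17.7% called), with 2 day 0 libraries in each fit. There the log2 fold changes were 1.15 for Rad54b and 1.55 for Fanci at day 7, against 1.14 and 1.91 over all libraries. At day 14 they were 0.58 for Blm, 0.57 for Chek2 and 0.82 for Apex1, against 0.99, 0.61 and 0.86. At days 7 and 14 the counts ran from 11 to 12 and from 13 to 14 when any single library was left out, day 0 replicate 4 included, with 11.8% to 16.5% and 19.6% to 23.7% of all genes called.

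The same libraries stood apart in a list of 20 markers of cycling cells. Mki67, a protein of dividing nuclei, was at 13.3, 21.2, 11.0 and 13.3 CPM at day 0, 70.6, 58.6, 74.8 and 82.3 at day 7, 77.7, 70.4, 114 and 81.0 at day 14 and 45.8, 28.3 and 73.6 at day 21. Day 21 replicate 2 was the lowest of the later libraries and replicate 3 the highest of day 21. Of the 20 markers 17, 16 and 12 were higher at days 7, 14 and 21 and 0 were lower, with medians of 1.89, 1.97 and 1.20. Top2a, a topoisomerase of dividing cells, had log2 fold changes of 2.54 (SE 0.30) at day 7, 2.74 (SE 0.30) at day 14 and 1.67 (SE 0.31) at day 21. Mcm2, a subunit of the replication helicase, had 1.14, 0.79 and 0.28, and Pcna, the replication clamp, 0.65, 0.51 and 0.27, with edgeR adjusted p at day 21 of 0.300 and 0.146.

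The summed level of the 20 markers was 258 to 305 CPM at day 0, 593 to 727 at day 7, 586 to 712 at day 14, and 438, 315 and 624 in day 21 replicates 1, 2 and 3. As the mean log2 CPM over genes relative to day 0, the markers stood at 1.14, 0.47 and 1.61 in those 3 libraries. The 14 recombination and Fanconi genes without Mre11a, Rad50 and Nbn stood at 0.82, 0.42 and 1.11, in the same order. Single-strand break and base excision genes (0.12, 0.06 and 0.23) and 80 repair genes outside the 38 (0.12, 0.09 and 0.15) shared it over a narrower range. End joining genes (-0.13, 0.12 and 0.07) and checkpoint and break signalling genes (0.06, 0.10 and 0.49) did not. Macrophage and monocyte markers (0.93, 0.30 and 1.16), T cell markers (-0.56, -1.59 and -0.02) and B and plasma cell markers (-0.81, -1.34 and -0.58) had that order too. At day 7 these 14 genes were at 0.87 to 1.05 and the markers at 1.47 to 1.78, and at day 14 at 1.0 to 1.31 and 1.54 to 1.88. The part of cycling cells in the repair gene result was not tested.

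**Figure D3:**
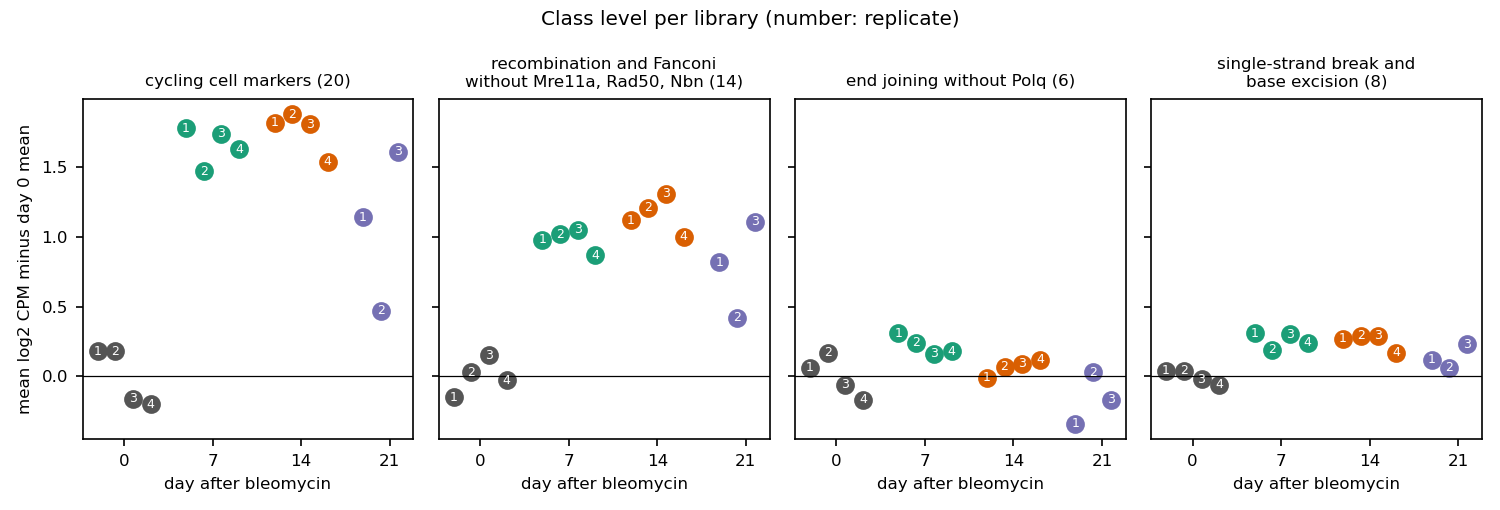
Mean log2 CPM over the genes of a list minus the day 0 mean (vertical axis) in each library, by day after bleomycin (horizontal axis), with the replicate number in each point. At day 21, replicate 2 is the lowest in the cycling cell markers (0.47) and in the 14 recombination and Fanconi genes (0.42), and replicate 3 is the highest in both (1.61 and 1.11).

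Markers of other cell types also moved with the days. Lung epithelial markers summed to 26431 to 35913 CPM at day 7, 13608 to 27491 at day 14 and 9760 to 14374 at day 21, with 2, 4 and 5 of 6 lower. Of 5 endothelial markers 2, 3 and 1 were lower, of 5 fibroblast markers 3 were higher at each day, and of 5 macrophage and monocyte markers 2, 4 and 3 were higher. Of 5 B and plasma cell markers 0, 4 and 4 were lower and at day 21 1 was higher, and of 5 T cell markers 0 passed at any day. Heart muscle markers ranged from 18.2 to 224 CPM within day 0 and from 11.8 to 665 within day 21, and of 4 tested 0, 1 and 0 were lower. Fat markers ranged from 1.55 to 51.6 CPM within day 0, 4.64 to 127 within day 7, 0.400 to 0.650 within day 14 and 0.228 to 2.41 within day 21. Of 4 fat markers tested 0, 4 and 3 were lower, with median log2 fold changes of 0.38, -5.67 and -3.99. The part of these shifts in the repair gene result was not tested.

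Most of the called genes were low before injury. Per kilobase of exon, 13 of the 38 genes had under 0.5 CPM at day 0, from Exo1 (0.0809) to Brca2 (0.378), and 25 had more, from Atr (0.734) to Nbn (9.76). Of the 13 low genes 10, 11 and 9 were higher at days 7, 14 and 21, where 16.6%, 23.1% and 26% of all genes under that level were. Of the 25 others 1, 3 and 1 were higher, against 7.49%, 10.1% and 10.1% of all genes above it. The boundary was placed after the values were seen, and the day 0 level itself enters each fold change, so these counts are a description. Brca2 and Palb2 were the 2 low genes that passed at no day in edgeR, and Lig1, Chek2 and Apex1 the called genes above the boundary.

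**Figure D4:**
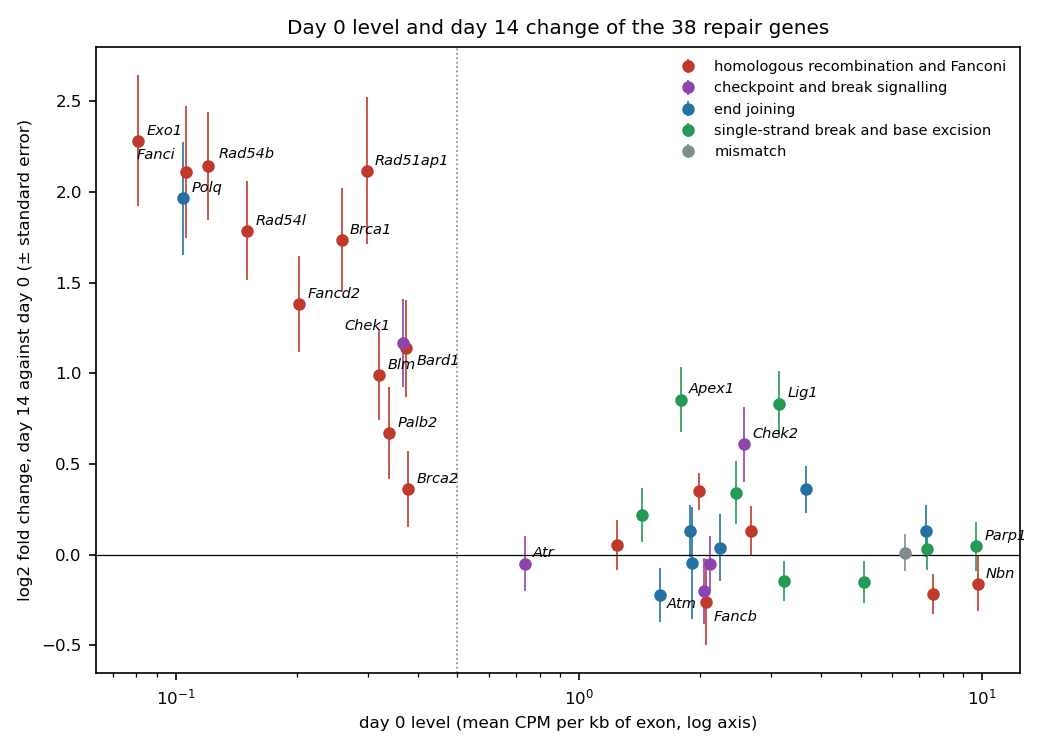
Log2 fold change at day 14 against day 0 (vertical axis, bars for the standard error) against the day 0 level in CPM per kilobase of exon (horizontal log axis) for the 38 repair genes, coloured by role, with a dotted line at 0.5. Exo1, at 0.0809, has the largest change (2.28) and Nbn, at 9.76, has -0.16.

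Promoter sequence was read to see which letters the rising and the other genes share. RefSeq promoters of GRCm38.p6, from 250 bases before to 50 after the start, were listed for 31 of the 38 genes. Motifs were counted on both strands: the E2F type (TTTCCCGC, TTTCGCGC, TTTGCCGC or TTTGGCGC), named after factors of replicating cells; the cell cycle homology region (TTTGAA or TTCGAA); and the CCAAT box. The E2F letters were in 5 of 31 repair promoters (16.1%) and in 2.32% of all 27025 promoters. Of the 14 genes called higher at any day, 11 had a listed promoter (Rad54b, Fancd2 and Exo1 had none). The E2F letters were in 2 of these 11 (18.2%) and in 3 of the other 20 (15%). The cell cycle homology region was in 3 of 11 and 2 of 20 (27.3% and 10.0%, against 19.4% of all promoters) and CCAAT in 6 of 11 and 10 of 20 (54.5% and 50.0%, against 37.9%). Searched letters may overlap between sets, a match does not show that a factor binds, and no match says only that these letters are not in this window.

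The 5 windows with E2F letters are shown because they come from called (Bard1, Chek2) and uncalled (Brca2, Xrcc6, Msh6) genes alike, with the Polq window of the cell cycle homology region and the Brca1 window of the CCAAT box for comparison. All are 5′ to 3′ on the strand of the gene, with the matched letters, or their reverse complement, in capitals.
Bard1 (chr1:71103165-71103190, minus strand): gccgctcagTTTCCCGCtcaggaagt
Chek2 (chr5:110839822-110839847, plus strand): ggattagccGCGGGAAAccaagacgt
Brca2 (chr5:150522444-150522469, plus strand): taggccacaGCGGGAAAcagacacac
Xrcc6 (chr15:82016314-82016339, plus strand): ggggtggaaGCGGGAAAtgcgagtgg
Msh6 (chr17:87975056-87975081, plus strand): cctcccgacTTTCCCGCcagcggcgg
Polq (chr16:37011773-37011798, plus strand): gaggcctgcaTTTGAAgatggaggcg
Brca1 (chr11:101552027-101552052, minus strand): agactaggtagCCAATcgcaaaccca
All 5 E2F windows hold the same 8 letters, TTTCCCGC, read on either strand. At day 14 the genes behind them spanned log2 fold changes from 0.01 (Msh6) over 0.36 (Brca2), 0.36 (Xrcc6) and 0.61 (Chek2) to 1.14 (Bard1).

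Repair genes outside the 38 were counted from a list of 82, of which 80 were tested. Of these 10, 13 and 7 were higher and 5, 3 and 4 lower at days 7, 14 and 21. That was 12.5%, 16.2% and 8.75% higher, against 8.78%, 12.0% and 12.4% of all genes, and 7.36%, 11.2% and 10.1% of all genes were lower. The median log2 fold changes of the 80 genes were -0.03, 0.07 and 0.09. Among the largest rises at day 14 were those of Neil3, a glycosylase that also opens cross-links, with 2.94 (SE 0.28, edgeR adjusted p = 4.13e-06), of Eme1, a subunit of the nuclease that cuts joined molecules, with 2.65 (SE 0.38, edgeR adjusted p = 0.000120), and of Rmi2, a partner of Blm, with 1.66 (SE 0.56, edgeR adjusted p = 0.0322). Among the rises at day 7 were 2.57 for Eme1, 2.18 for Rmi2 and 1.84 for Neil3. At day 21 they included Neil3 (1.93), Eme1 (1.82) and Rad18 (1.42).

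Of the genes called lower in that list, Ddb2, a sensor of damage in nucleotide excision repair, fell by 1.35 at day 7 and 0.98 at day 14 on the log2 scale (edgeR adjusted p of 0.00151 and 0.00640), and Neil2, a base excision glycosylase, fell by 1.06 at day 7 (edgeR adjusted p = 0.0403) with overlapping libraries. Nthl1, another glycosylase, fell by 0.99 at day 14 (edgeR adjusted p = 0.00148). Genes called lower at day 21 included Xpc, the damage sensor that works with Ddb2, which fell by 0.69, and Fancc, of the Fanconi core complex, which fell by 0.66 (edgeR adjusted p of 0.000730 and 0.0287).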

How the data were processed

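The authors trimmed paired-end reads with TrimGalore, aligned them to mm10 (GRCm38) with HISAT2 2.1.0, excluded multi-mapped reads and deposited raw counts per Ensembl gene from HTSeq 0.6.0, without normalization. The annotation release and strand setting are not given in the sources used here. Reads lost to overlapping genes can lower a count.

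Groups were taken from sample titles. Counts were tested with edgeR 4.0.16 in R 4.3.3 (filterByExpr, TMM, quasi-likelihood test, day as the only term, 15 libraries in 1 fit), with Benjamini-Hochberg adjustment over 17457 genes and the study's thresholds (adjusted p under 0.05, fold change over 1.5). CPM used TMM-scaled totals, and list levels used log2 CPM with a prior count of 2. Symbols came from GENCODE M21, which matched 33267 of 33340 identifiers. The scripts were tested on simulated data. No 2 libraries of the same day agreed within sampling noise (chi-square per degree of freedom of at least 11.4).

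The members, lists and alternatives (DESeq2 1.42.0, limma 3.58.1 voom, scaling, filters, thresholds, left-out libraries, mitochondrial share) were chosen with earlier results of these data known. Values in every library are given for members called against day 0 at any day, and the other members by ranges, counts and fold changes. Outside these 38, the 4 largest rises and 2 largest falls of each day and 4 cycling markers are named, except 1 gene that is not reported here. Library values of Xrcc5, Xrcc6 and Parp1, and the other falls named, were added after they were seen.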

Additional observations from a re-analysis of the deposited data

Results flagged for a closer look

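In 114 sets of libraries of 1 gene and 1 day, 3 held a library far from the others by Dixon's test, where chance gives about 5%. Mre11a was at 22.3 CPM in day 7 replicate 2 and at 18.6 to 19.1 in the other day 7 libraries. Xrcc1 was at 20 CPM in day 7 replicate 2, under the 26.5 to 27.5 of the others. Aptx was at 20.3 CPM in day 7 replicate 1, above the 17.4 to 17.7 of the others. None of these 3 genes passed the adjusted p at any day against day 0.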

How the results depend on the processing

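No fold change of a called repair gene turned its sign. Of 37 calls of a gene in a comparison, 16 were kept in all alternatives run and 21 were lost in at least 1, and of 680 alternative values 77 lost the call. Tested against a fold change of 1.5 itself (glmTreat), the count was 6 in place of 11 at day 7, 9 in place of 14 at day 14, 2 in place of 10 at day 21, 0 from day 7 to day 14 and 0 from day 7 to day 21, with 4.03%, 10.1%, 10.0%, 0.0802% and 1.01% of all genes called. It was 6 at day 21 when only the 2 groups were fitted (21.6% of all genes, in place of 22.5%). The count from day 7 to day 14 was 0 in place of 1 without a filter and with the mitochondrial covariate (3.90% and 1.25% of all genes, in place of 6.00%). From day 7 to day 21 it was 2 in place of 1 without a filter and with limma voom, 3 by the adjusted p alone and 0 with the mitochondrial covariate (5.63%, 9.56%, 12.6% and 5.40% of all genes, in place of 9.54%). The day 14 class difference was 0.42 in place of 0.86 among libraries of similar mitochondrial share. The recombination median there was that of Palb2 (0.69) in place of Blm (0.99), and the other median 0.27 in place of 0.13. The part of the mitochondrial share in this was not tested.

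Leaving out single libraries gave counts of 11 to 12 at day 7, 13 to 14 at day 14, 4 to 13 at day 21, 0 to 1 from day 7 to day 14, 0 to 7 from day 7 to day 21 and 0 from day 14 to day 21. The shares of all genes called were then 11.8% to 16.5%, 19.6% to 23.7%, 18.8% to 21.4%, 1.95% to 7.47%, 5.42% to 10.2% and 0.00% to 0.730%. The class differences then ran from 0.26 to 0.45 at day 7, 0.74 to 1.03 at day 14, 0.67 to 0.96 at day 21, 0.08 to 0.21 from day 7 to day 14, -0.11 to 0.19 from day 7 to day 21 and -0.24 to 0.08 from day 14 to day 21. No fit among libraries of similar mitochondrial share was made for day 21, where the shares leave too few libraries.

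Replicate numbers were not taken to pair the libraries in the main fit, and the correlations computed cannot decide whether they do. Deviations of libraries with the same number correlated at -0.24 to 0.40 (median 0.04, 8 of 21 pairs over 0.1). Those with different numbers correlated at -0.33 to 0.26 (median -0.03, 11 of 63 pairs over 0.1). With the replicate block the count was 11 at day 7, 14 at day 14, 8 at day 21, 0 from day 7 to day 14 and 2 from day 7 to day 21, with 16.7%, 23.6%, 21.5%, 6.78% and 9.46% of all genes called.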
